A study of Homo sapiens with 6 samples.

Results

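The genes described are 10 listed kinases and kinase subunits of phosphoinositide metabolism, led by PIP4K2A. PIP4K2A was chosen from its measured response to a miR-338-5p mimic in these arrays, as 1 of the genes that were higher with the mimic in every line, and the others were selected by their place in the same pathway. Of the 10 listed genes, 9 had a probe set annotated to their symbol alone, each with 1 probe set, out of 18417 genes with such a probe set. PIK3CA was not analysed here. PIP5K1B lay below the filter on low values, so 8 members stood among the 13813 genes tested. The member list was written with results of these arrays known, and the mimic response of the members is therefore given as a description with no test, while differences between the lines, which the choice did not use, were tested.

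RNA came from A172, T98G and U87MG, which are established human glioblastoma cell lines. Each line was transfected with a negative control oligonucleotide or with a miR-338-5p precursor (hereafter the mimic), and harvested 24 hours later, which gave 6 Affymetrix Human Gene ST 1.0 arrays with 3 per group. Both groups were transfected and grown in the same medium, and the labels do not say whether an array came from 1 culture or from a pool. All values are log2 expression from RMA, in which a difference of 1 is a doubling.

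Phosphoinositides are lipids of the cytosolic membrane leaflets whose inositol ring is phosphorylated at defined positions. Each combination of positions marks a particular membrane and recruits particular proteins. PIP5K enzymes make phosphatidylinositol 4,5-bisphosphate, the lipid of the plasma membrane, from the 4-phosphate, and PIP4K enzymes make the same product from the 5-phosphate and so use up that minor lipid. Class I PI3K turns this product into the 3,4,5-trisphosphate that recruits AKT, a growth signal that is often raised in glioblastoma. PIKFYVE acts on endosomes, where it makes the 3,5-bisphosphate.

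The agent common to all mimic arrays is miR-338-5p. Its mature sequence (RefSeq, GRCh38.p14, chr17:81125923-81125944, minus strand) is shown because the seed, bases 2 to 8 in capitals, is the stretch by which a microRNA mainly finds its targets.

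hsa-miR-338-5p: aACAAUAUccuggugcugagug

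Among 2370 mature human microRNA names in the same table, 0 others carried this seed. Transcript sequences of the members were not used here, so no statement is made on sites for this seed in them.

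Before the members' values, the arrays as a whole can be set out. Array medians lay between 5.06 and 5.14. Of 9 markers of glia and neural stem cells, 4 (GFAP, NES, VIM and CD44) stood above the filter level of 4.28 on all 6 arrays and 3 (S100B, FABP7 and AQP4) on none. Of 4 leukocyte markers 1 stood above it on all arrays, of 4 endothelial markers 0, of 5 epithelial markers 3 (the keratins KRT8, KRT18 and KRT19) and of 4 neuronal markers 2. The filter level marks off the lowest 25% of genes by mean and is not a limit of detection. GFAP, at 5.07 to 5.39, lay close to the array medians. The highest values of the glial list were those of VIM (11.9 to 12.6) and CD44 (11.5 to 11.9). The mean level of the glial list was 5.78 to 6.21 on control arrays and 5.84 to 6.22 on mimic arrays, that of the epithelial list 5.62 to 7.07 and 5.47 to 7.18, of the neuronal list 4.91 to 5.81 and 4.76 to 5.67, of the endothelial list 3.77 to 4.49 and 3.80 to 4.49, and of the leukocyte list 3.63 to 4.25 and 3.67 to 4.17. The upper ends of the epithelial list were those of A172, where KRT8 was at 10.4 (control) and 10.5 (mimic). In T98G and U87MG KRT8 was at 4.90 to 5.63. EPCAM stood above the filter level on 3 arrays and CDH1 on 1.

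PIP4K2A encodes the alpha isoform of the PIP4K enzymes, which lies on chromosome 10 (22534854 to 22714578, GRCh38.p14). Its level went from 8.53 on the control array to 9.61 on the mimic array in A172, from 7.63 to 8.40 in T98G and from 8.57 to 9.25 in U87MG. Within each line the mimic array was the higher one, but the 2 groups overlapped, since T98G with the mimic stood below the controls of the other 2 lines. The change within A172 was 1.09 (2.12-fold), within T98G 0.77 (1.70-fold) and within U87MG 0.68 (1.60-fold). Over the 3 lines the mean change was 0.84 ± 0.21 (SD, n = 3), which is 1.79-fold. PIP4K2A was chosen on these changes, so their size beside this SD is a description and carries no test. As a description of what the choice used, this mean was the 8th highest of the 13813 genes, and within single lines the change ranked 22nd in A172, 34th in T98G and 58th in U87MG. The arrays measure bulk RNA, in which the share of cells that express a gene and the level per cell cannot be told apart.

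**Figure D1:**
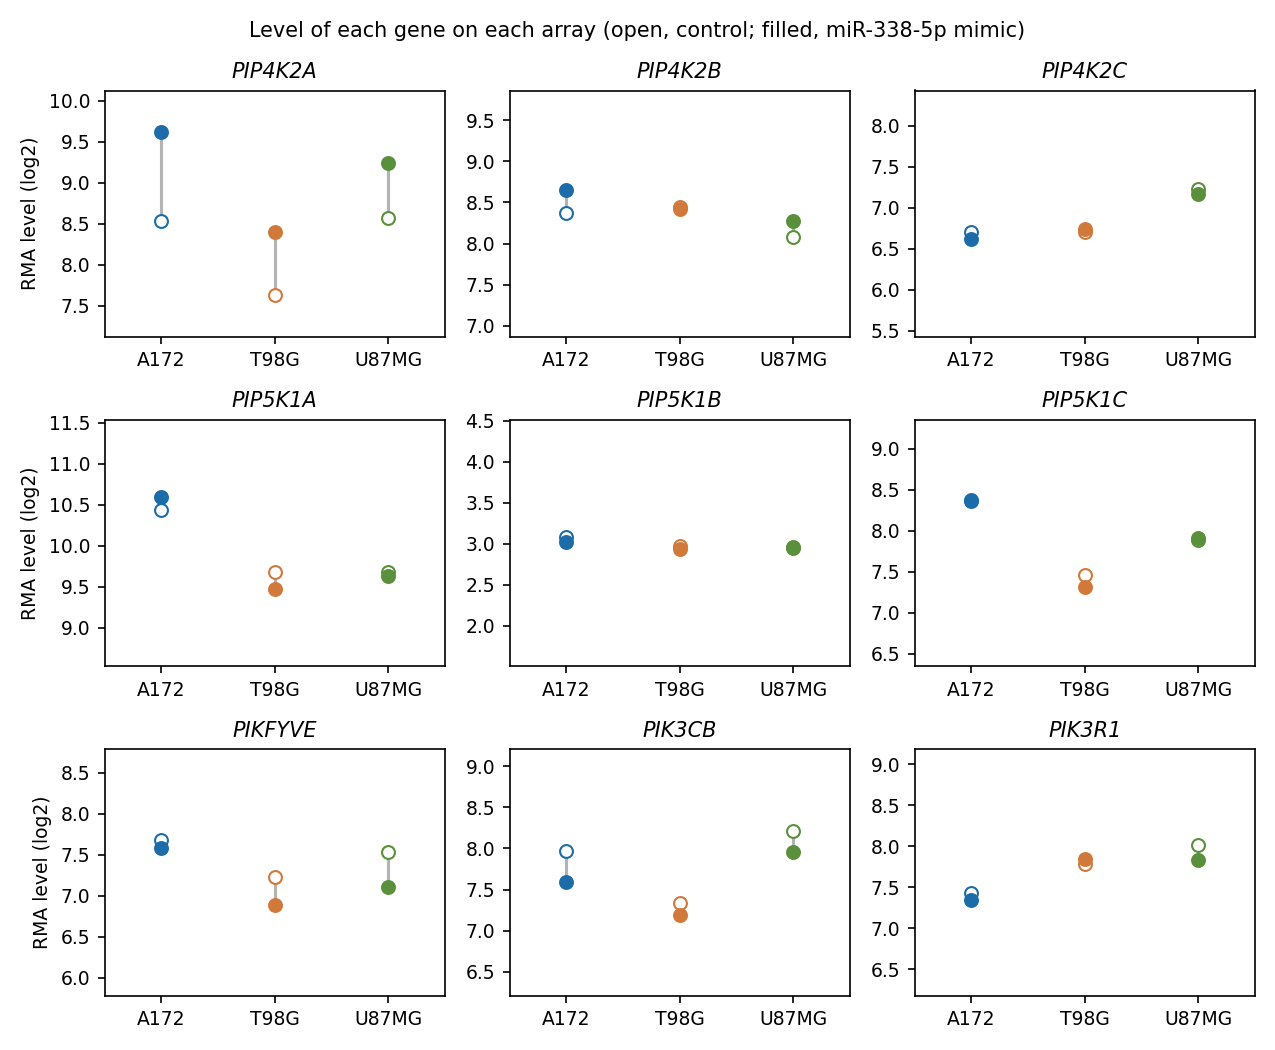
RMA level (log2) of the 9 measured members on each of the 6 arrays, with open circles for the control and filled circles for the mimic array of a line, and the same span in every panel. PIP4K2A is higher with the mimic in every line, PIKFYVE and PIK3CB are lower in every line, and PIP5K1B stays between 2.93 and 3.08.

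The other 2 PIP4K genes did not share that size of change. PIP4K2B, the beta isoform, was at 8.37 and 8.65 in A172 (control, then mimic), at 8.44 and 8.42 in T98G and at 8.08 and 8.28 in U87MG. It was higher with the mimic in 2 lines and lower by 0.02 in T98G, with a mean change of 0.15 ± 0.15 (SD, n = 3), as large as its own SD. PIP4K2C, the gamma isoform, which has the weakest catalytic activity of the 3, was at 6.70 and 6.62 in A172, 6.70 and 6.75 in T98G and 7.23 and 7.16 in U87MG. Its mean change of -0.03 ± 0.07 was smaller than its SD. The change of PIP4K2A exceeded that of PIP4K2B by 0.80 within A172, 0.78 within T98G and 0.48 within U87MG, and that of PIP4K2C by 1.16, 0.72 and 0.75 in the same order. These differences follow from the choice of PIP4K2A and carry no test.

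The PIP5K genes, whose enzymes make the same lipid from the more abundant precursor, moved little and not in 1 direction. PIP5K1A was at 10.44 and 10.60 in A172 (control, then mimic), 9.68 and 9.47 in T98G and 9.67 and 9.63 in U87MG. It was higher in A172 by 0.16 and lower in T98G by 0.22, and its mean change of -0.03 ± 0.19 (SD, n = 3) was smaller than its spread. PIP5K1A has processed copies in the genome, and 2 of them, PIP5K1P1 and PIPSL, had probe sets of their own, at 3.12 to 3.53 and at 2.21 to 2.79, below the filter level on all arrays. Signal of such copies on the PIP5K1A probes was not tested. PIP5K1C, the gamma isoform found at focal adhesions and synapses, was at 8.38 and 8.36 in A172, 7.46 and 7.32 in T98G and 7.88 and 7.91 in U87MG, a mean change of -0.04 ± 0.09. PIP5K1B was at 2.93 to 3.08 on the 6 arrays, below the filter level of 4.28 on each, so its changes of -0.06, -0.04 and 0.01 are not read as a response.

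PIKFYVE and PIK3CB were the members that were lower with the mimic in every line. The share of all genes lower in every line is not given here, so this is a description of single genes. PIKFYVE was at 7.68 and 7.58 in A172 (control, then mimic), 7.23 and 6.89 in T98G and 7.53 and 7.11 in U87MG. Its change within A172 was -0.10, within T98G -0.34 and within U87MG -0.42, with a mean of -0.29 ± 0.17 (SD, n = 3), or 1.22-fold lower. PIK3CB, the beta catalytic subunit of class I PI3K, which can be activated by G protein-coupled receptors as well as by receptor tyrosine kinases, was at 7.97 and 7.59 in A172, 7.33 and 7.20 in T98G and 8.22 and 7.96 in U87MG. Its changes of -0.38, -0.14 and -0.26 had a mean of -0.26 ± 0.12, or 1.20-fold lower, and the line that changed least was not the same for both genes. PIK3R1, the regulatory subunit p85-alpha, which binds phosphorylated receptors and holds the catalytic subunit in check, was at 7.43 and 7.35 in A172, 7.78 and 7.84 in T98G and 8.01 and 7.84 in U87MG. It had a mean change of -0.07 ± 0.12, smaller than its spread. The 2 groups overlapped for all 9 measured members. The share of all genes with overlapping groups is not given here, so this overlap is not read as a trait of the members.

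**Figure D2:**
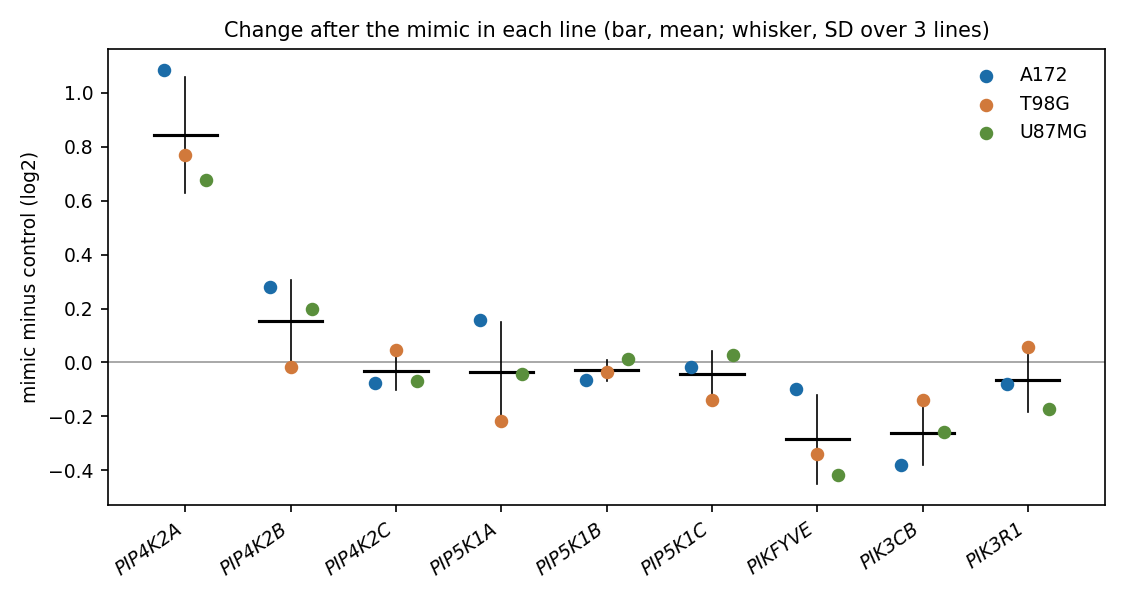
Mimic minus control (log2) in each of the 3 lines for the 9 measured members, with the mean over the lines as a bar and the SD as a whisker. PIP4K2A stands at 0.84 on average, PIKFYVE at -0.29 and PIK3CB at -0.26, and the means of the other 6 genes lie between -0.07 and 0.15.

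Of the 8 members past the filter, 2 had a positive and 6 a negative mean change, with a median of -0.04, against 7233 positive, 6580 negative and a median of 0.0068 over all genes tested. The mean change of PIP4K2A was 0.72 without A172, 0.88 without T98G and 0.93 without U87MG. PIP4K2A was chosen as higher in every line, so these means could only be positive and are a description.

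The genes whose profile was closest to that of PIP4K2A over the 6 arrays were found by the root mean square difference of log2 values after each gene was centred on its own mean. They were SLK (0.237), a kinase of the cytoskeleton, KCTD18 (0.243), PPP3CB (0.247), a catalytic subunit of calcineurin, ZIC1 (0.256), a zinc finger transcription factor of neural development, and TK2 (0.264), the mitochondrial thymidine kinase. Each was lowest in T98G and higher with the mimic in every line, with a mean change of 0.50 for SLK, 0.63 for KCTD18, 0.39 for PPP3CB, 0.38 for ZIC1 and 0.60 for TK2. The likeness rests on 6 arrays that share 3 lines, and is a description. These genes were picked for likeness to PIP4K2A on the same arrays, so their shared pattern follows from the choice.

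The lines differed in the level of most members, and these differences were tested with limma over all genes with the group as an additive term, on 2 arrays per line (its control and its mimic array). The F test over the lines passed an adjusted p of 0.05 for 7 of the 8 members, all but PIP4K2B (0.0584), against 67.5% of all genes. The share of members is thus read beside a high share of genes that differ between the lines. The median range between the highest and lowest line mean was 0.696 over the members and 0.535 over all genes. PIP4K2A had the widest range of the members, 1.05, wider than that of 78.2% of genes and above its own mimic change of 0.84.

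PIP4K2A had a mean level of 9.07 in A172, 8.91 in U87MG and 8.02 in T98G. A172 exceeded T98G by 1.05 ± 0.12 (SE, adjusted p = 0.000482 in limma), or 2.08-fold, and T98G lay below U87MG with a difference of -0.89 ± 0.12 (adjusted p = 0.00113). Without the group term, where the mimic response counts as spread, the adjusted p was 0.0704 and 0.122. A172 and U87MG, neighbours in this order, differed by 0.16 with a 95% interval of -0.12 to 0.45 (adjusted p = 0.285), and their order turned between control arrays (-0.04) and mimic arrays (0.37). PIP4K2B stood at 8.51 on average in A172, 8.43 in T98G and 8.18 in U87MG; limma's pairwise test called only A172 against U87MG, at 0.33 ± 0.10 (adjusted p = 0.0348, against 0.0551 with no filter on low genes, 0.0854 with arrays centred on their medians and 0.0643 without the group term). PIP4K2C was highest in U87MG, at 7.20 against 6.72 in T98G and 6.66 in A172. It was lower than in U87MG by -0.53 ± 0.09 in A172 and -0.48 ± 0.09 in T98G (limma adjusted p = 0.00268 and 0.00521), while A172 and T98G differed by -0.06 (interval -0.28 to 0.16).

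**Figure D3:**
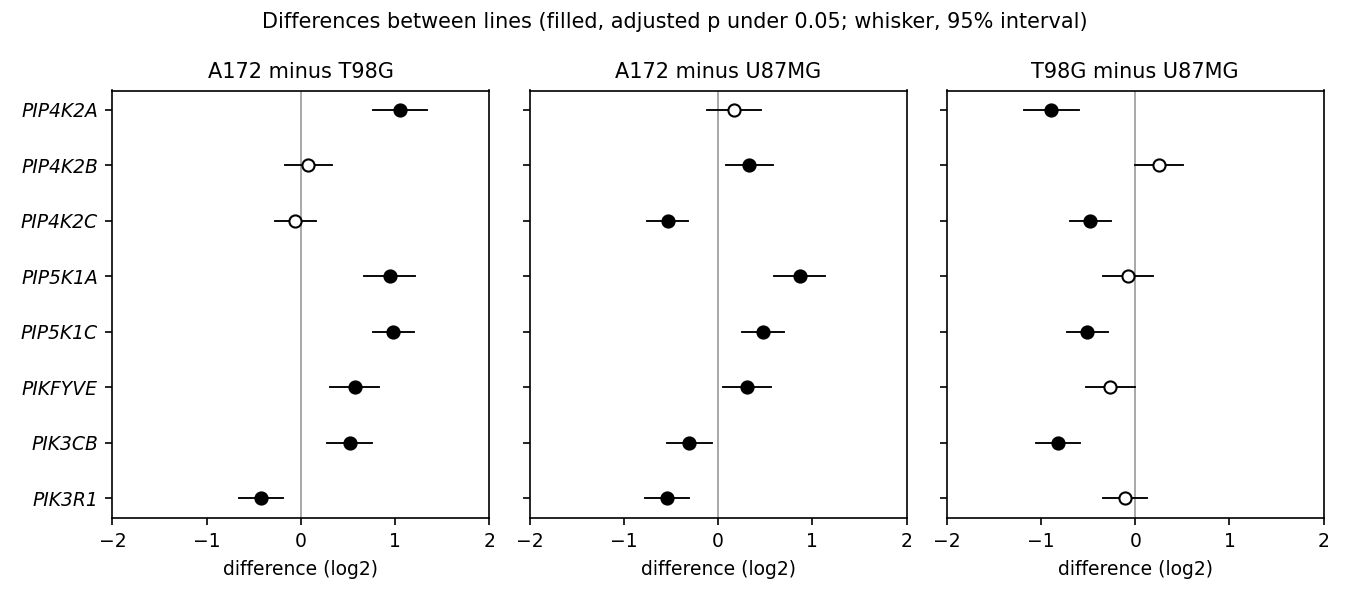
Differences between line means (log2) for the 8 tested members in the 3 pairwise comparisons, with 95% intervals that are not adjusted for the number of genes and filled circles where limma's adjusted p is under 0.05. PIP4K2A, PIP5K1A and PIP5K1C are each higher in A172 than in T98G by 0.94 to 1.05, and PIK3R1 is lower in A172 than in both other lines.

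PIP5K1A stood at 10.5 in A172 and at 9.57 in T98G and 9.65 in U87MG. A172 exceeded them by 0.94 ± 0.11 and 0.87 ± 0.11 (SE; limma adjusted p = 0.000597 and 0.000819), and T98G and U87MG differed by -0.08 (95% interval -0.35 to 0.19). PIP5K1C differed in all 3 pairs, with 8.37 in A172, 7.89 in U87MG and 7.39 in T98G. A172 exceeded T98G by 0.98 ± 0.09 and U87MG by 0.47 ± 0.09 (limma adjusted p = 0.000206 and 0.00497). T98G lay below U87MG with a difference of -0.51 (limma adjusted p = 0.00434). The same order held in its control and in its mimic arrays.

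PIKFYVE had the same order of lines as PIP5K1C, at 7.63, 7.32 and 7.06. A172 exceeded T98G by 0.57 ± 0.11 (limma adjusted p = 0.00459) and U87MG by 0.31 (0.0489, against 0.0744 with no filter, 0.106 with centred arrays and 0.173 without the group term), and T98G against U87MG did not pass, at -0.26 with a 95% interval of -0.52 to -0.01 that is not adjusted (adjusted p = 0.0881). PIK3CB was highest in U87MG, at 8.09, then 7.78 in A172 and 7.26 in T98G, with all 3 pairs called: 0.52 ± 0.10 for A172 over T98G, -0.31 for A172 against U87MG and -0.82 for T98G against U87MG (limma adjusted p = 0.00475, 0.0369 and 0.000653; the second was 0.0589 with no filter, 0.0721 with repeated quantile normalization and 0.144 without the group term). PIK3R1 was lowest in A172, at 7.39, against 7.81 in T98G and 7.93 in U87MG. It differed by -0.43 ± 0.10 from T98G and by -0.54 ± 0.10 from U87MG (limma adjusted p = 0.0105 and 0.00365), and T98G and U87MG differed by -0.11 (interval -0.35 to 0.12).

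By pair of lines, A172 and T98G differed in 6 of the 8 members, 5 of them higher in A172, where 50.5% of all genes differed. A172 and U87MG differed in 7 of 8, 4 of them higher in A172, where 54.2% of genes differed. In this pair PIP4K2B, PIKFYVE and PIK3CB did not pass with no filter or without the group term, as given above. The shares of all genes called in this pair under those settings are not given here. T98G and U87MG differed in 4 of 8, each lower in T98G, where 47.1% of genes differed. T98G had the lowest mean of 5 members. The matching shares by direction over all genes are not given here, so these directions are not read as a trait of the members. The 3 comparisons share arrays and are not independent of each other. The labels name 1 array per line and group, so these p-values measure the spread left after line and group, and not that between separate cultures of a line.

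Other genes of the pathway were described from lists of 108 genes grouped by function, of which 92 were tested. These lists were written with earlier results of these data known, so the shares called in them are descriptions. With the mimic 3 of the 92 fell in limma's fit, 0 rose and 89 did not pass, that is 3.26% called, beside 0.789% lower and 0.319% higher among all genes tested. At an unadjusted p under 0.05 there were 16 (17.4%), 3 of them higher and 13 lower. Among all genes tested the share was 11.8%, with 830 higher and 805 lower. The list median was -0.01, with 44 positive and 48 negative changes. The 3 genes that fell belong to different steps of the pathway.

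IPMK, a kinase that phosphorylates soluble inositol phosphates and can also act as a phosphoinositide 3-kinase, went from 6.41 to 5.47 in A172, from 7.44 to 6.49 in T98G and from 6.75 to 6.03 in U87MG. It fell by 0.87 ± 0.13 (SD, n = 3; limma adjusted p = 0.0123), or 1.83-fold, with a change in each line from -0.95 to -0.72. The groups overlapped, and within each line the mimic array was the lower one. Without the U87MG arrays its change was -0.95 with an adjusted p of 0.09.

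PHLPP2, a phosphatase that removes an activating phosphate from AKT, went from 8.15 to 7.45 in A172, from 7.45 to 6.95 in T98G and from 7.49 to 6.86 in U87MG. It fell by 0.61 ± 0.10 (SD, n = 3; limma adjusted p = 0.0251), or 1.52-fold. HYCC1, also called FAM126A, a part of the complex that holds PI4KA at the plasma membrane, went from 7.06 to 6.61 in A172, from 8.10 to 7.51 in T98G and from 8.27 to 7.59 in U87MG. It fell by 0.58 ± 0.12 (adjusted p = 0.031), or 1.49-fold, and was lower in 3 of 3 lines, as PHLPP2 was. PHLPP2 did not pass without A172 (adjusted p = 0.10), without U87MG (0.191) or with no filter (0.0563), and HYCC1 did not pass without any 1 line (0.0659 without A172, 0.0676 without T98G and 0.208 without U87MG) or with no filter (0.0672).

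**Figure D4:**
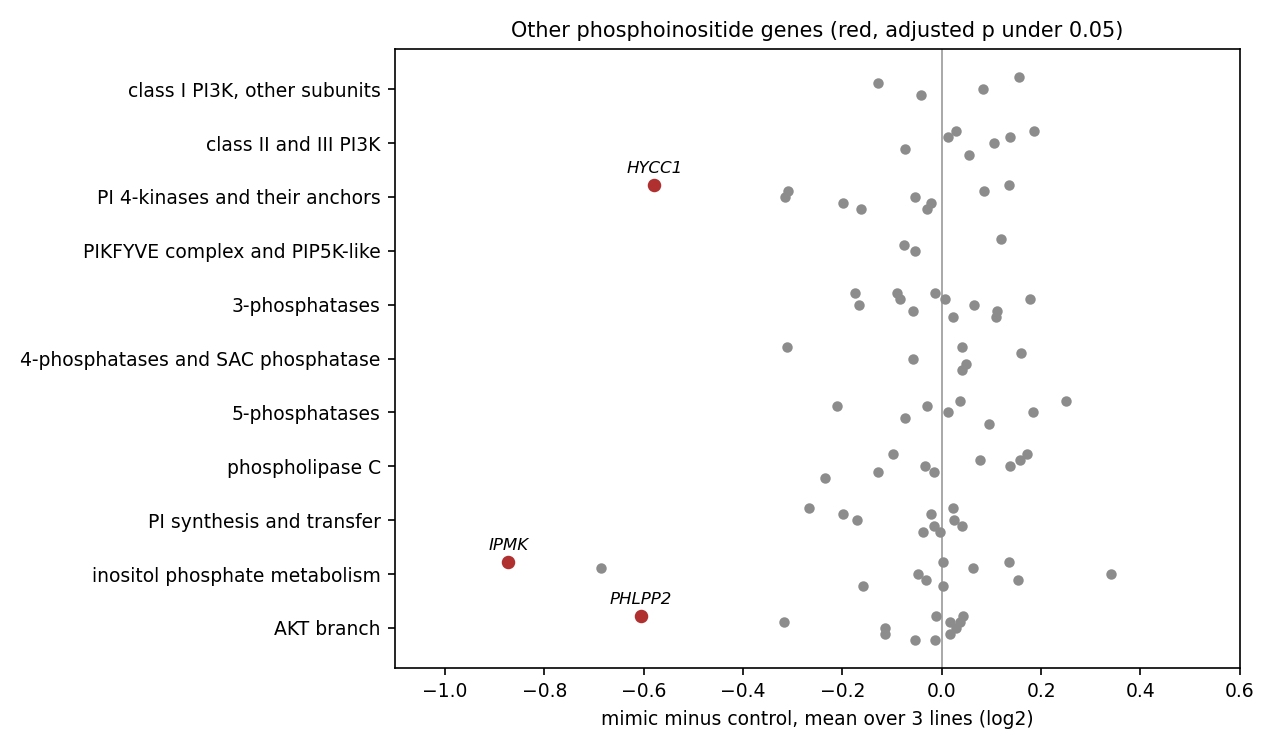
Mean change over 3 lines (mimic minus control, log2) of the 92 tested pathway genes in 11 lists, with the genes past limma's adjusted p of 0.05 in red. IPMK at -0.87, PHLPP2 at -0.61 and HYCC1 at -0.58 lie on the lower side, with IMPA1 at -0.69 among them, which did not pass.

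The list of inositol phosphate metabolism had 11 tested genes with a median change of 0.0031, and besides IPMK it held IMPA1, the inositol monophosphatase that returns free inositol, at -0.69 ± 0.27 (SD, n = 3; limma adjusted p = 0.0513, lower in 3 of 3 lines). The list of PI 4-kinases and their anchors had a median of -0.11 over 10 genes, 8 of them negative, and after HYCC1 its gene of smallest p was HYCC2 at -0.31 ± 0.03 (adjusted p = 0.141). In the AKT branch, with a median of -0.01 over 12 genes, GSK3B followed PHLPP2 at -0.32 ± 0.11 (adjusted p = 0.159).

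No gene passed in the other 8 lists in limma's fit, in which 7 of 59 tested genes (11.9%) had an unadjusted p under 0.05, beside 11.8% of all genes. Among the 4 tested other subunits of class I PI3K the changes of smallest p were those of PIK3R3 at 0.16 and PIK3CG at -0.13, and among 7 class II and III genes those of PIK3C2B at 0.19 and UVRAG at 0.14. Of the partners of PIKFYVE, VAC14, its scaffold, was at 0.12 and FIG4, the phosphatase of the complex, at -0.05, and in the same list of 3 genes PIP5KL1 was at -0.08 (limma adjusted p from 0.695 to 0.878). Among 12 tested genes of the 3-phosphatase list those of smallest p were MTMR9 at -0.17 and MTMR4 at 0.18. Again by smallest p, among 6 genes of the list with 4-phosphatases SACM1L, which returns the 4-phosphate to phosphatidylinositol, was at -0.31 ± 0.13 (adjusted p = 0.183) and INPP4B at 0.16. Among 8 tested 5-phosphatases INPP5J was at 0.25 and SYNJ2, a synaptojanin, at -0.21. The genes of smallest p were PLCD3 at 0.17 and PLCB2 at 0.16 among 9 of phospholipase C, and CDS1 at -0.27 and PITPNM2 at -0.20 among 10 of phosphatidylinositol synthesis and transfer. Between the lines, 72 of the 92 pathway genes differed in the F test, 78.3% against 67.5% of all genes.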

How the data were processed

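The deposited table holds log2 values of 33297 probe sets on 6 arrays, which the authors made, per the submitters' processing notes, with RMA (package oligo, R 3.0.1). Batch handling is not given in the sources used here. No further normalization was applied. RMA makes the arrays' distributions alike, so a shift of most genes in 1 direction would be largely removed.

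The platform annotation gave 1 symbol for 19460 probe sets, several for 1754 and none listed for 12083, and symbols were updated through the gene identifier to RefSeq (GRCh38.p14). The brightest probe set stood for a gene. The lowest 25% of genes by mean (under 4.28) were left out. Of 108 listed pathway genes 7 were not analysed here and 9 lay below the filter.

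The moderated test of limma 3.58.1 (R 4.3.3), two-sided with Benjamini-Hochberg adjustment over all 13813 genes, compared the groups with the line as a block, with 2 residual degrees of freedom, 6.56 with the variance prior, and the lines with the group as a term. The labels name the line of each array, which pairs the arrays. The 2 arrays of a line also deviated together from their group means (r = 0.958 for A172, 0.951 for T98G, 0.958 for U87MG, across genes). The number of arrays limits the precision. No scan date is in the labels, so a batch that followed the groups and the mimic cannot be told apart. The scripts were tested on simulated data. The members and lists were chosen with earlier results of these data known. Genes named are all members, every pathway gene past the threshold, the 2 of smallest p in each list (FIG4 was added after its value was seen), and the 5 genes most like PIP4K2A. Alternatives were the block, the filter, centring, repeated quantile normalization, the variance prior, the probe set rule, the group term, and leaving out each line.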

Additional observations from a re-analysis of the deposited data

How the results depend on the processing

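The number of arrays, 1 per line and group, limits every call. The count of 153 genes past limma's adjusted threshold was 0 without the cell line in the model (no replicate block; 127 at an unadjusted p under 0.05), 60 with no filter, 360 with the lower 50% of genes left out, 236 with arrays centred on their medians, 471 with an expression-dependent variance prior, and between 0 and 117 when 1 line was left out (0 without U87MG, where 1339 had an unadjusted p under 0.05; 64 without A172). The 3 pathway genes became 0 without the replicate block (0 at an unadjusted p under 0.05), 1 with no filter, 6 with the lower 50% left out or with the expression-dependent prior, and between 0 and 2 when 1 line was left out (0 without U87MG, with 14 at an unadjusted p under 0.05). A fit on 2 lines has fewer degrees of freedom, and a call lost there is not by that alone a call that 1 line carried. The mean change of PIP4K2A was 0.83 with arrays centred on their medians and 0.85 with repeated quantile normalization, against 0.84. PIP4K2A was chosen on this change, so these values are a description. Without T98G the small mean changes of PIP5K1A and PIP5K1C turned sign, from -0.03 to 0.06 and from -0.04 to 0.0050. Members that differed over the lines numbered 7, between 4 and 7 when 1 line was left out (4 without A172), and 5 without the group term. Among all 13813 genes 9321 differed, and 6337 without A172, 7682 without T98G, 6689 without U87MG and 8716 without the group term. The lower counts of members are read beside these lower counts of all genes. Without the group term PIP4K2A lost its limma calls of A172 over T98G (adjusted p = 0.0704) and of T98G below U87MG (0.122). None of the 24 member contrasts between lines reversed; 11 of their alternative values fell out of the threshold and 2 came into it. The cause of these moves was not tested.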
